A study of Mus musculus with 12 samples.

Results

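The genes described here encode the major histocompatibility complex (MHC), the proteins that supply it with peptides, and products of the interferon response. They were taken by name from the authors' 2 deposited tables of the corticosterone (CORT) effect in the mouse ventral hippocampus. The rule took each gene whose symbol starts with H2-, which gave 20 genes, and 35 further genes from a list of 37 names, 2 of which (Oas1a and Mx1) had no row. That made 55 of the 17564 genes. The rule itself uses names and no measured value, but it was set with earlier results of these data known.

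The tissue came from male C57BL/6 mice that were either wild-type (WT) or heterozygous for the Val66Met variant knocked into the gene of brain-derived neurotrophic factor (BDNF het-Met). Mice of each genotype drank CORT, the main glucocorticoid of rodents, at 25 mg/l in 1% ethanol, or the vehicle (VEH), 1% ethanol alone, for 6 weeks from 2 months of age. Per the labels there were 12 libraries, 3 for each genotype under each treatment (WT VEH, WT CORT, and BDNF het-Met with VEH or with CORT), with the RNA of each library pooled from 2 animals. The question was how CORT changed these genes in each genotype.

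All values come from the authors' deposited limma-voom fit, which gives each gene 1 mean level over the libraries and 1 log2 fold change per genotype. The level is in log2 CPM, where CPM scales a library's read counts to a common total. The sign of the fold change is given here so that a negative value means lower under CORT, and each error is the moderated standard error (SE). Single libraries had no values to analyse here, so overlap between groups cannot be described. Per the labels, a library had about 35 to 40 M reads, and the depth of each single one is unknown here. The fit listed 7 residual degrees of freedom, whereas 12 libraries in 4 groups leave 8. The SE in WT animals was a median 1.12 times that in BDNF het-Met animals, the ratio that a WT group of 2 libraries in place of 3 would give, so the n behind the WT values may be lower than the labels say. The direction was read from the names of the comparisons. Fkbp5 and Plin4, glucocorticoid-induced genes picked after their values were seen, had positive values in both genotypes, 0.21 ± 0.09 and 0.43 ± 0.08 for Fkbp5 and 1.52 ± 0.40 and 1.70 ± 0.30 for Plin4 (WT, then BDNF het-Met).

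MHC class I molecules are carried by nearly all nucleated cells and show fragments of the cell's own proteins to CD8+ T cells. They consist of a heavy chain and the light chain beta-2 microglobulin, and are loaded with peptides that the immunoproteasome cuts and the TAP transporter brings into the endoplasmic reticulum. MHC class II molecules show peptides of ingested material to CD4+ T cells and are made by professional antigen-presenting cells, which in the brain means mainly microglia and macrophages at its borders. Interferons signal through JAK kinases and STAT and IRF factors to raise both sets and a large group of antiviral genes, and glucocorticoids are known to dampen this signalling in immune cells.

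Class II genes are switched on through a promoter module whose Y box holds an inverted CCAAT sequence, and interferon acts through the interferon-stimulated response element and the gamma-activated site. The promoter stretches below are shown for 6 members whose CORT effects the results turn on and whose promoter holds one of these sequences. They are RefSeq sequences on build GRCm38.p6, 5′ to 3′ on the strand of the gene. In the H2-Aa, H2-Eb1, H2-Ob and H2-DMb1 stretches capitals mark the Y box core ATTGG. In the B2m stretch they mark the response element core GAAANNGAA and ATTGG, and in the Psmb8 stretch the gamma-activated core TTCNNNGAA. The H2-DMb1 and Psmb8 stretches are held to 30 bases because another annotation, GENCODE M21, starts a transcript upstream of them.
H2-Aa, chr17:34287829-34287928, minus strand: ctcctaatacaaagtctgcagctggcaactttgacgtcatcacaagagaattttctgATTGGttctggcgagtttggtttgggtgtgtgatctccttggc
H2-Eb1, chr17:34305762-34305861, plus strand: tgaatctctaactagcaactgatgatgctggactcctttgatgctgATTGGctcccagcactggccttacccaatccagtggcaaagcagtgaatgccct
H2-Ob, chr17:34238800-34238899, plus strand: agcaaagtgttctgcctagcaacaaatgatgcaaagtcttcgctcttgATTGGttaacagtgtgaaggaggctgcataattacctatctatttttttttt
H2-DMb1, chr17:34153118-34153147, plus strand: attcactcagtgATTGGtctgacctgccta
B2m, chr2:122147542-122147681, plus strand: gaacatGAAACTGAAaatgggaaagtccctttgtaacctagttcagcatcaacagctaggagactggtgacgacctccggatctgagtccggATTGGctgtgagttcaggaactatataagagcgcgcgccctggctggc
Psmb8, chr17:34198087-34198116, plus strand: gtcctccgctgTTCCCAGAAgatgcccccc

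A promoter sequence was at hand for 42 of the 55 members, of which the 250 bases before the start were searched on both strands. GAAANNGAA occurred in 16 of the 42, against 7.13% of all 32851 promoters, and 10 of the 16 were antiviral effectors or interferon-induced GTPases, namely Bst2, Ifit1, Ifit3, Ifitm2, Isg15, Rsad2, Gbp2, Gbp3, Igtp and Irgm1. TTCNNNGAA occurred in 6 of the 42, among them Irf1 and Psmb8, against 7.02% of all promoters. A longer Y box, CTGATTGG, occurred in 8 of the 42, against 3.83% of all promoters. The core ATTGG, read on the gene's strand from 40 to 80 bases before the start, also occurred in 8, against 5.44%. These were the class II genes H2-Aa, H2-Eb1, H2-Ob and H2-DMb1 and the class I genes B2m, H2-D1, H2-Q4 and H2-Q6. Ifitm3 and the class II gene H2-DMa had a promoter sequence but none of these matches. ATTGG lies within CTGATTGG, the GAAANNGAA and TTCNNNGAA matches of Bst2 overlap, and both Y box searches were added after the values were known. These matches describe letters in the window and were not tied to the CORT values.

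Most members were present at low levels. The median level was 1.51 log2 CPM, against 3.87 over all genes, and 46 of the 55 lay in the lowest 2 of 5 expression quintiles. Per kilobase of exon the highest level was that of B2m, the class I light chain, at 6.01 log2 CPM per kilobase. Next came Ifi27, an interferon-induced mitochondrial protein, at 4.19, H2-D1 at 3.71, Ifitm3 at 3.30 and H2-K1 at 2.79 on the same scale. The classical class I chain H2-D1 thus stood above the class II chains H2-Eb1 at -0.34, H2-Ab1 at -1.12 and H2-Aa at -1.22 log2 CPM per kilobase. The invariant chain Cd74, which escorts class II molecules, was at 1.16, and the lowest member, H2-Ob, at -3.76 on this scale. These levels are means over the fit, and their spread over libraries is not known here.

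**Figure D1:**
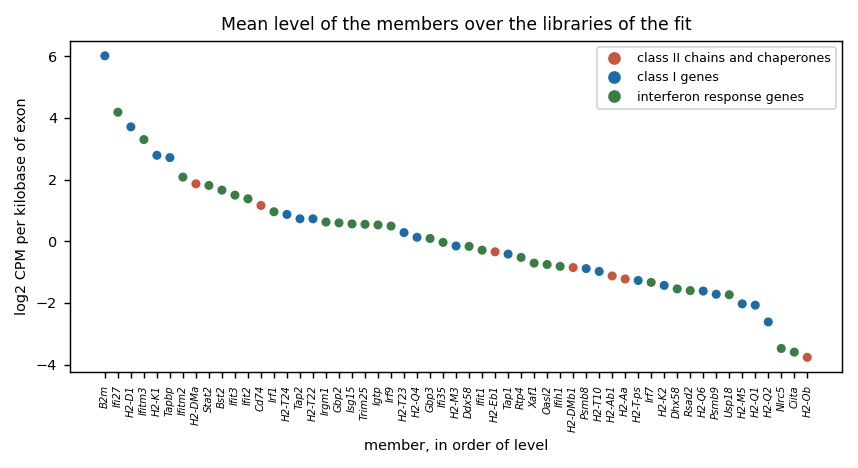
Mean level of each of the 55 members in log2 CPM per kilobase of exon, with members on the horizontal axis in order of level and coloured by class. B2m stands highest at 6.01 and H2-Ob lowest at -3.76.

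CORT was associated with lower values across most of the 55 genes in both genotypes. In WT animals 46 of 55 had a negative log2 fold change and the median was -0.23 (-0.36 over the 20 H2- genes alone), against 51.1% of all genes and a median of -0.00. In BDNF het-Met animals 49 of 55 were negative and the median was -0.31, against 51.8% of all genes and a median of -0.01. In the same expression range, the lowest 2 quintiles, 84.8% of 46 members were negative in WT animals and 89.1% in BDNF het-Met animals, against 54.9% and 59.0% of all genes there. Both values were negative for 44 members. Of the other 11, Ciita, H2-M3, Stat2 and Trim25 were positive in both genotypes, H2-M5, H2-Q2, H2-T22, Ifit2 and Tap2 were negative in BDNF het-Met animals alone, and H2-T24 and Isg15 in WT animals alone. Members share cells and regulators and are not independent, so these are counts with no test.

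Single genes were called as differentially expressed (DEGs) by the rule of the study, which asks for an uncorrected p below 0.05 together with a fold above 1.3. In WT animals 3 members fell, namely B2m, H2-DMb1 and Psmb8, which is 5.45% of the members against 0.672% of all genes called lower. In BDNF het-Met animals 8 fell, namely Cd74, H2-Aa, H2-Ab1, H2-Eb1, H2-DMb1, H2-Ob, Psmb8 and Ifitm3, which is 14.5% against 2.52%. Within the lowest 2 expression quintiles the shares were 4.35% of members against 1.48% of genes in WT animals, and 17.4% against 4.94% in BDNF het-Met animals. No member was called higher, against 0.581% of all genes in WT animals and 0.723% in BDNF het-Met animals. H2-DMb1 and Psmb8 were called in both genotypes. After Benjamini-Hochberg adjustment over all genes, 0 genes had an adjusted p below 0.05 by limma in either genotype, and among members the smallest adjusted p was 0.999 in WT animals and 0.261 in BDNF het-Met animals. At an uncorrected p below 0.05 by limma without the fold minimum there were 3 of 55 members in WT animals and 10 in BDNF het-Met animals. Of all 17564 genes, 672 in WT animals and 2317 in BDNF het-Met animals had such a p, in either direction. The members thus stood out less from all genes at this threshold than under the rule with the fold minimum.

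**Figure D2:**
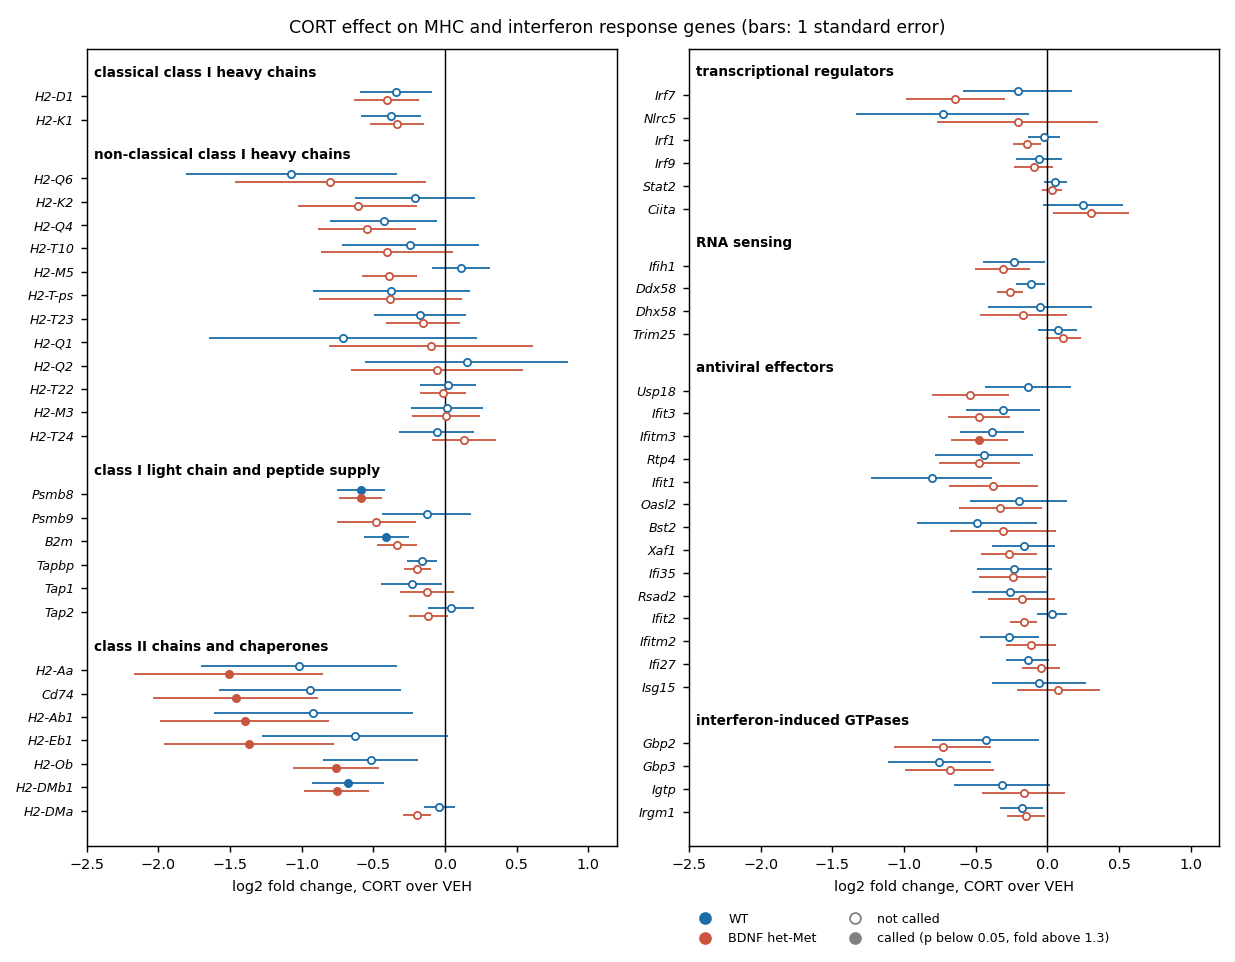
Log2 fold change of CORT over VEH for the 55 members, grouped by role, in WT (blue) and BDNF het-Met animals (red), with bars of 1 SE and filled points for called genes. The 3 genes called in WT animals and the 8 called in BDNF het-Met animals all lie left of 0, and H2-Aa in BDNF het-Met animals is farthest left at -1.51.

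The class II genes had the most negative median of the role groups in both genotypes, although in WT animals the lowest single value of the 55 was that of the class I gene H2-Q6. All 7 were negative in both genotypes, with a median of -0.68 in WT animals and -1.37 in BDNF het-Met animals, and 6 of the 7 were called in BDNF het-Met animals against 1 in WT animals. H2-Aa, the alpha chain of the I-A molecule, changed by -1.51 ± 0.66 (SE) in BDNF het-Met animals, a 2.85-fold lower level, and had a value of -1.02 ± 0.68 in WT animals. H2-Ab1, the beta chain of the same molecule, changed by -1.40 ± 0.59 in BDNF het-Met animals, with -0.92 ± 0.69 in WT animals. H2-Eb1, the beta chain of the I-E molecule, changed by -1.37 ± 0.59 and had -0.63 ± 0.65 in WT animals. Cd74, the invariant chain, changed by -1.46 ± 0.58 and had -0.94 ± 0.63 in WT animals. The SEs of these 4 genes, from 0.58 to 0.69, were more than double the members' median of 0.27 in WT animals and 0.24 in BDNF het-Met animals. With the ordinary SE at 7 degrees of freedom in place of the moderated one, none of the 4 kept an uncorrected p below 0.05 in BDNF het-Met animals, where p was 0.104, 0.0924, 0.101 and 0.0795 in the order given. With the values centred on the median of all genes of the same expression quintile, H2-Aa at -1.45 and H2-Eb1 at -1.30 were no longer called in BDNF het-Met animals.

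H2-DMb1, a chain of the H2-DM molecule that exchanges peptides on class II molecules, had a smaller and better determined change. It fell by 0.68 with an SE of 0.25 in WT animals and by 0.76 with an SE of 0.23 in BDNF het-Met animals, at uncorrected p of 0.0206 and 0.00672 by limma, and was called in both genotypes with the ordinary SE too. The level of H2-DMb1 was low, at -0.10 log2 CPM. H2-DMb1 shares a stretch of 200 bases at 98% identity with its neighbour H2-DMb2, so reads may have been split between them. H2-DMb2 had no row of its own. H2-Ob, which encodes the beta chain of H2-DO, an inhibitor of H2-DM, fell by 0.76 with an SE of 0.30 in BDNF het-Met animals and had -0.52 ± 0.33 in WT animals. H2-DMa, the partner chain of H2-DMb1, had -0.04 ± 0.11 and -0.20 ± 0.10 and was not called. Ciita, the transactivator on which class II transcription depends, had positive values, 0.25 ± 0.28 in WT animals and 0.30 ± 0.27 in BDNF het-Met animals, at a level of -0.34 log2 CPM. Its 95% interval in BDNF het-Met animals ran from -0.28 to 0.89.

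The class I heavy chains had moderate negative values that were not called in either genotype. H2-K1 had -0.37 ± 0.21 in WT animals and -0.34 ± 0.19 in BDNF het-Met animals. H2-D1 had -0.34 ± 0.25 and -0.41 ± 0.23, respectively. Of the 12 non-classical heavy chain genes, a group in which GENCODE lists H2-K2, H2-T-ps and H2-T10 as pseudogenes, 8 were negative in WT animals and 10 in BDNF het-Met animals, and none was called. The lowest was H2-Q6 at -1.07 ± 0.74 in WT animals and -0.80 ± 0.67 in BDNF het-Met animals, and H2-T22 was near 0 at 0.02 ± 0.20 and -0.01 ± 0.16. H2-M5 had 0.11 ± 0.20 and -0.39 ± 0.19, and with the ordinary SE it was called in BDNF het-Met animals at an uncorrected p of 0.0147. H2-K1, H2-Q4, H2-Q6, H2-T10, H2-T22 and H2-T23 share at least 75 bases at 98% identity or more with other genes, for H2-T10 and H2-T22 with each other over 519 bases, so their values are uncertain to that extent. Over all members 13 held such a stretch, the others being H2-DMb1, Tapbp, Ddx58, Igtp, Irf9, Rtp4 and Xaf1.

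Psmb8, a catalytic subunit of the immunoproteasome, fell by nearly the same amount in both genotypes. It changed by -0.59 ± 0.17 in WT animals and -0.59 ± 0.15 in BDNF het-Met animals, at uncorrected p of 0.00485 and 0.00274 by limma. Its call held in both genotypes with the ordinary SE. B2m fell in WT animals by 0.41 with an SE of 0.16, at an uncorrected p of 0.0251, and changed by -0.34 ± 0.14 in BDNF het-Met animals at an uncorrected p of 0.0361, where its fold of 1.26 missed the minimum. With the ordinary SE the p of B2m was 0.0696 and 0.0894, respectively. Psmb9, the subunit that assembles beside Psmb8, had -0.13 ± 0.31 and -0.48 ± 0.28 and was not called. The transporter chains Tap1 and Tap2 had -0.23 ± 0.21 and 0.04 ± 0.16 in WT animals and -0.12 ± 0.19 and -0.12 ± 0.14 in BDNF het-Met animals. Tapbp, which bridges the transporter to class I molecules, had -0.16 ± 0.11 and -0.19 ± 0.09.

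Among the 14 antiviral effectors 13 were negative in each genotype, and 1 was called. That gene was Ifitm3, a membrane protein that blocks the entry of viruses, which fell by 0.48 with an SE of 0.20 in BDNF het-Met animals and had -0.38 ± 0.22 in WT animals. Its p in BDNF het-Met animals by limma was 0.0350, and 0.0804 under the ordinary SE. Ifit1, which binds viral RNA caps, had the most negative value of the group in WT animals, -0.81 ± 0.42, and -0.38 ± 0.31 in BDNF het-Met animals. Ifit3 had -0.31 ± 0.26 and -0.48 ± 0.22. Ifi27, the most abundant effector, had -0.14 ± 0.15 and -0.05 ± 0.13, and Isg15, a ubiquitin-like modifier, had -0.06 ± 0.33 and 0.08 ± 0.29.

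The 4 interferon-induced GTPases, which attack the vacuoles of intracellular pathogens, were negative in both genotypes with no call. Gbp3 had -0.76 ± 0.36 in WT animals and -0.68 ± 0.31 in BDNF het-Met animals, and Gbp2 had -0.43 ± 0.37 and -0.73 ± 0.34. Igtp and Irgm1 were between -0.32 and -0.15 in both. Of the RNA sensors, Ddx58 (RIG-I) had -0.12 ± 0.10 in WT animals and -0.26 ± 0.09 in BDNF het-Met animals, the latter at an uncorrected p of 0.0147 but below the fold minimum. Ifih1 (MDA5), which like B2m lies on chromosome 2 with Bdnf, had -0.24 ± 0.22 and -0.31 ± 0.19. The regulators showed the smallest median values, -0.04 in WT animals and -0.12 in BDNF het-Met animals. Stat2, part of the complex that type I interferon activates, had 0.06 ± 0.08 and 0.03 ± 0.07, and Irf9 of the same complex had -0.06 ± 0.16 and -0.10 ± 0.14. Irf7 had -0.21 ± 0.38 and -0.64 ± 0.35, and Nlrc5, the class I transactivator, had -0.73 ± 0.60 and -0.21 ± 0.56.

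The CORT effect was then averaged over the genotypes, with the 2 estimates of each gene taken as uncorrelated. At an uncorrected p below 0.05, 17 of the 55 members were lower, which is 30.9% against 6.18% of all genes, and no member was higher. These were Psmb8, B2m, Tapbp, H2-K1, H2-D1, all class II genes except H2-DMa, Gbp2, Gbp3, Ifit1, Ifit3, Ifitm3 and Ddx58. Adjusted over all genes, 13 genes passed, or 0.074% of them, and no member was among these. Psmb8 came closest with a mean change of -0.59 ± 0.11 and an adjusted p of 0.137, followed by H2-DMb1 at -0.72 ± 0.17 with an adjusted p of 0.197, B2m at -0.37 ± 0.11 with an adjusted p of 0.216, and Gbp3 at -0.72 ± 0.24 with an adjusted p of 0.259. In the authors' joint F test over 3 contrasts, B2m, H2-DMb1 and Psmb8 had an uncorrected p below 0.05, or 5.45% of the members against 7.43% of all genes.

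The larger number of calls in BDNF het-Met animals does not show a larger effect there. The difference of the CORT effect between genotypes had an uncorrected p below 0.05 for 0 of the 55 members, against 2.41% of all genes, and no member passed after adjustment, with a smallest adjusted p of 1.000 by limma statistics. All 7 class II genes were more negative in BDNF het-Met animals, but the intervals are wide. The difference, BDNF het-Met minus WT, was -0.49 for H2-Aa with a 95% interval from -2.58 to 1.61, and -0.52 for Cd74 with an interval from -2.41 to 1.37. For Psmb8 the difference was -0.00 with an interval from -0.50 to 0.49. H2-M5 had the smallest uncorrected p for the difference, 0.0993, at -0.50 with an interval from -1.11 to 0.11, followed by Ifit2 at -0.20 and H2-DMa at -0.16. Over the 55 members the values in the 2 genotypes had a Pearson r of 0.76 and a Spearman rho of 0.71, against an r of 0.30 over all genes. The genotypes share no library, but each gene's estimates share its expression level and residual spread, and genes are not replicates.

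**Figure D3:**
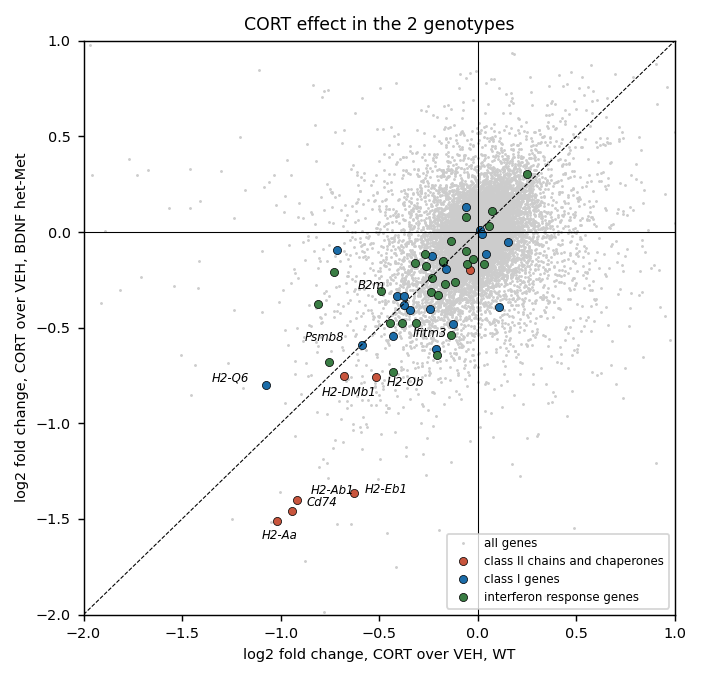
Log2 fold change of CORT over VEH in WT (horizontal) against BDNF het-Met animals (vertical) for all genes (grey) and the 55 members (coloured by class), with the line of equal change dashed. The axes run from -2 to 1 and leave out 35 genes, none of them a member. H2-Aa, H2-Ab1, H2-Eb1 and Cd74 lie farthest toward the lower left, with values from -1.51 to -1.37 in BDNF het-Met animals.

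The MHC genes lie close together on mouse chromosome 17, which held 25 of the members. The stretch described here was drawn from the first to the last of these 25, from 33915899 to 37274484 (GRCm38). Of these 25, 20 were negative in WT animals and 23 in BDNF het-Met animals, with medians of -0.24 and -0.39. The 92 other genes of the stretch had medians of 0.02 and -0.05, and 43 and 62 of them were negative. Of these 92 neighbours, 1 was called lower in WT animals and 9 in BDNF het-Met animals, against 0.672% and 2.52% of all genes. Of the 25 members in the stretch, 2 and 6 were called lower. The 30 members outside the stretch had medians of -0.22 and -0.25, and 26 of the 30 were negative in each genotype.

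Other genes of the same pathways were taken from 6 lists. Of 35 further interferon-induced genes, 30 were negative in each genotype, with medians of -0.15 in WT animals and -0.27 in BDNF het-Met animals. None of them was called in WT animals, and 4 fell in BDNF het-Met animals: Mx2 by 0.94, Gbp6 by 0.86, Gbp9 by 0.60 and Trim30a by 0.46. Of all genes, 2.52% were called lower in BDNF het-Met animals. In WT animals Mx2, Gbp6 and Trim30a were positive, at 0.04, 0.39 and 0.09, and Gbp9 had -0.10. The interferon receptors and JAK-STAT genes were centred near 0, with a median of -0.03 in both genotypes over 13 genes and 1 call, Socs1, an inhibitor of JAK kinases, which changed by -1.06 ± 0.30 in BDNF het-Met and had 0.30 ± 0.33 in WT animals. Of 12 nucleic acid sensing genes, Tmem173 (STING) was called at -0.60 ± 0.17 in BDNF het-Met animals, with -0.28 ± 0.18 in WT animals. Of 5 further IRF genes, Irf5 was called at -0.38 ± 0.14 in BDNF het-Met animals. Of 10 genes of class II regulation and processing, the costimulator Cd86 and the protease Ctss, which trims the invariant chain, were called at -0.59 ± 0.21 and -0.52 ± 0.23 in BDNF het-Met animals. None of the 8 genes of class I processing and loading was called. No gene of these lists was called in WT animals, and none was called higher. The difference between genotypes had an uncorrected p below 0.05, by limma statistics, for 3 of the 83 listed genes, against 2.41% of all genes. These were Socs1, Mx2 and Gbp6, at low levels of -0.72, -0.89 and -1.33 log2 CPM.

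Markers of immune cells, which carry many of these genes, were read in the same tables. All 12 microglia markers were negative in both genotypes, with medians of -0.20 in WT animals and -0.50 in BDNF het-Met animals. None of the 12 was called in WT animals, and Fcrls, Trem2, Aif1, P2ry12 and C1qc fell in BDNF het-Met animals, by 1.05, 0.78, 0.65, 0.61 and 0.57. Of all genes, 0.672% and 2.52% were called lower in the 2 genotypes. In WT animals the same genes had -0.42, -0.34, -0.14, -0.27 and -0.20. The difference between genotypes had an uncorrected p below 0.05, by limma statistics, for 0 of the 12. For the effect averaged over the genotypes, 7 of the 12 were lower at such a p, against 6.18% of all genes. The median level of the 12 was 5.07 log2 CPM. In the highest 3 expression quintiles, 14 of 10538 genes were called lower in WT animals and 95 in BDNF het-Met animals. The 7 border macrophage markers had medians of 0.14 and -0.10 with no call, and Mrc1 and Cd163, which define these cells, had -0.18 and 0.14 in WT animals and -0.15 and 0.38 in BDNF het-Met animals. Of the dendritic cell list 4 of 6 genes were measured, with medians of -0.02 and 0.05. Of these, Cd209a, at a level of -1.60 log2 CPM, was called at -2.14 ± 0.69 in BDNF het-Met animals, while Flt3 had 0.17 and 0.13, Clec9a -0.09 and 0.16 and Zbtb46 0.05 and -0.02 (WT, then BDNF het-Met). Of the B and plasma cell list 3 of 7 were measured, with medians of 0.28 and -0.94. Ighm fell by 0.81 in WT animals and 0.94 in BDNF het-Met animals and Igkc by 1.90 in BDNF het-Met animals. In WT animals Igkc had 0.34 ± 0.96, and Jchain had 0.28 in WT and -0.26 in BDNF het-Met animals. Of the T and NK cell list only Trac was measured, at -0.06 in WT animals and called at -0.57 in BDNF het-Met animals. None of the 6 neutrophil markers was in the tables.

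Among the remaining marker lists, only the astrocyte markers had a negative median in both genotypes. The 9 choroid plexus markers had a median of -1.57 in WT animals and 0.13 in BDNF het-Met animals with no call. Their median SE was 1.62 and 1.43, so these values were poorly determined. The 5 blood markers were positive throughout, with medians of 0.58 and 0.64 and no call. For the effect averaged over the genotypes, 3 of the 5 were higher at an uncorrected p below 0.05 by limma statistics. Of all 17564 genes, 1259 were higher at such a p. The 8 endothelium markers had medians of -0.10 and 0.01, with Itm2a called at -0.43 in BDNF het-Met animals. The 7 astrocyte markers had medians of -0.02 and -0.13, with Aqp4 called in both genotypes and Gfap in BDNF het-Met animals, all lower. Aldoc had 0.27 ± 0.07 and 0.25 ± 0.06 and Aldh1l1 0.25 ± 0.08 and 0.19 ± 0.07, each at an uncorrected p below 0.05 in both genotypes but below the fold minimum. The 9 hippocampal neuron markers, all at 5.93 log2 CPM or above, had medians of 0.00 and 0.16, with Zbtb20 called higher in BDNF het-Met animals. In whole tissue, fewer cells of a type and less RNA per cell cannot be told apart, and the part of microglia and of the other cell types in the members' values was not tested.

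**Figure D4:**
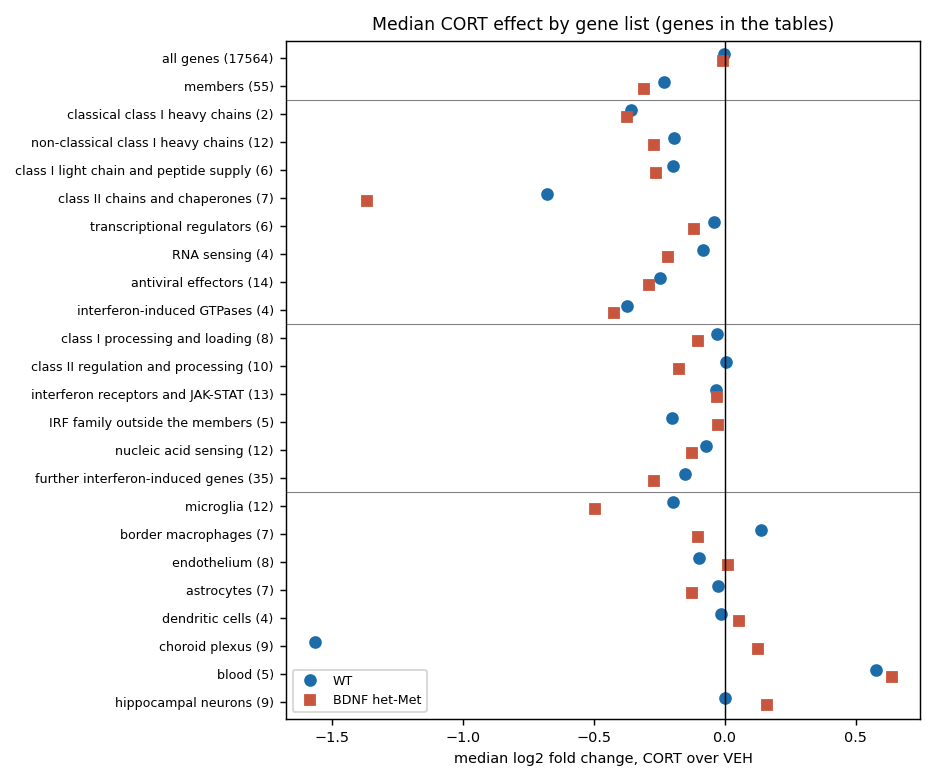
Median log2 fold change of CORT over VEH in WT (circles) and BDNF het-Met animals (squares) for all genes, the 55 members, their role groups, the 6 pathway lists and the cell marker lists with 4 or more genes (number of genes in brackets). The class II group lies at -0.68 and -1.37, the microglia markers at -0.20 and -0.50, and the choroid plexus markers at -1.57 in WT animals and 0.13 in BDNF het-Met animals. The median SE of the choroid plexus markers was 1.62 and 1.43, respectively.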

How the data were processed

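Per the study's methods and the labels, RNA of the ventral hippocampus was made into stranded libraries and read once from a single end over 75 bases. The authors trimmed the reads, aligned them with STAR to GRCm38, counted genes with featureCounts and fitted limma-voom. The authors deposited the fit as 2 tables with the mean log2 CPM, the log2 fold change (VEH minus CORT), its ordinary standard error, t and F scores, and p-values. These are the authors' own comparisons, and they are used here as the source of each value.

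The sign was turned, the moderated standard error was taken as log2 fold change over t, and adjusted p-values (Benjamini-Hochberg, all 17564 genes) were recomputed and differed from the listed ones by rounding error. The mean and the difference of the genotypes' effects were tested with the moderated standard errors at 10.9 degrees of freedom, treating the 2 estimates as uncorrelated. The calculation was tested on simulated data in which the errors of the 2 estimates were drawn independently. It therefore cannot check whether they are uncorrelated. The p-values set each change against the spread between libraries of pooled animals. That spread is moderated over genes, except where the ordinary SE is named. Coordinates and exonic lengths are from GENCODE M21 (GRCm38), and shared stretches were found with blastn. Full statistics are given for members called in either genotype, those of smallest p in each genotype, for the mean and for the difference, the 5 highest per length, and those on the chromosome of Bdnf. The members, lists and rules were chosen with earlier results of these data known.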

Additional observations from a re-analysis of the deposited data

How the results depend on the processing

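The count of called members, 3 in WT animals and 8 in BDNF het-Met animals, was recomputed under 9 settings per genotype. With p below 0.01 it was 1 and 2, and with the adjusted p over all genes 0 and 0. With the ordinary standard error it was 2 in WT animals and 4 in BDNF het-Met animals, where H2-Aa, H2-Ab1, H2-Eb1, Cd74 and Ifitm3 were lost and H2-M5 was gained. Of all genes, 0.507% and 1.86% were called lower under that setting, against 0.672% and 2.52% under the main rule. Among H2- genes alone the count of called members was 1 and 5, and without them 2 and 3. Without a fold minimum and at a fold above 1.5 it stayed within 1.5 times. At 0 log2 CPM or more it was 2 and 6, without H2-DMb1 in both genotypes and H2-Ob in BDNF het-Met animals, and centred by expression quintile 3 and 6, with H2-Aa and H2-Eb1 lost. The count for the mean effect went from 0 to 17 at the uncorrected threshold. The medians of -0.23 and -0.31 ran from -0.36 to -0.21 and from -0.40 to -0.24 under 5 settings. The value of -0.36 in WT animals, over 1.5 times the main one, was that of H2- genes alone. The 2 settings run for the 9 members called in either genotype could not turn the sign of their values. The ordinary standard error leaves the fold change as it is, and centring moved values by at most 0.06. The causes were not tested. No paired analysis was possible because no values per library were analysed here, and leaving out each library in turn was not run for the same reason.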
